A study of Mus musculus with 6 samples.

Results

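The axon guidance genes described here are the ligands and receptors of 4 signalling systems, namely semaphorins with plexins and neuropilins, ephrins with Eph receptors, Slits with Robos, and netrins with DCC and UNC5 receptors. They were taken by symbol from the annotated protein-coding genes, with Dcc and Draxin added by name, which gave 74 genes of the 55487 listed. Of these, 38 are ligands and 34 are receptors. The other 2, Unc50 and Unc5cl, fit the symbol pattern, but Unc50 encodes a membrane protein of the secretory pathway and Unc5cl a death-domain protein related to UNC5 receptors in sequence, and neither is a guidance cue or receptor. The cells were mouse embryonic fibroblasts (MEFs), connective-tissue cells cultured from embryos, and their RNA was sequenced in 6 libraries. The KO group held 3 libraries of untreated knockout cultures at passages 2, 3 and 4, and the WT group held 3 libraries of untreated wild-type cultures at the same passages, where a passage is a transfer of the cells to new dishes. The labels give neither the knocked-out gene nor strain, embryo age or number of embryos, so 1 culture could have given all passages of a genotype, and each p-value reflects no more than the variation among these 6 libraries. Genotype follows the library titles, because the genotype tag of the KO-titled libraries of passages 3 and 4 reads WT.

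Guidance cues steer the tips of growing axons by attraction or repulsion, and outside the nervous system the same proteins act on cell migration, tissue boundaries and blood vessels. Class 3 semaphorins are secreted and mostly bind neuropilins, which pass the signal on through plexins, whereas the membrane-bound semaphorins bind plexins directly. Ephrins and Eph receptors both sit on cell surfaces and signal where cells touch, in both directions. Slits are secreted repellents bound by Robo receptors. Netrins are laminin-related proteins, of which netrin-1 acts through DCC and UNC5 receptors.

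The upstream sequences of 5 members whose transcript level differed between KO and WT are shown because these genes moved in opposite directions: Epha2, Unc5a and Sema3e were higher in KO, and Ephb2 and Draxin were lower in KO. Each is the 250 bases before the transcription start in RefSeq's table for GRCm38.p6, written in the direction of transcription, and 64 of the 74 members had an entry there. Capitals mark matches on either strand, overlaps included, to 6 motifs: the cyclic AMP response element (TGACGTCA), the AP-1 site (TGACTCA), the TEAD site (GGAATG), the E-box (CACGTG), the GC box (GGGCGG) and the TATA box (TATAAA).
Epha2 (chr4:141300971-141301220, plus strand): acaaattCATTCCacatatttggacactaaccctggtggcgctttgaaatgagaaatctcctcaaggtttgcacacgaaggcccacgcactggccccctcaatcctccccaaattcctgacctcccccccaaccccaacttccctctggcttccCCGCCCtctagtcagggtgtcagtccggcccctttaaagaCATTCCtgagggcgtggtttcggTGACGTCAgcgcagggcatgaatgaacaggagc
Unc5a (chr13:54949161-54949410, plus strand): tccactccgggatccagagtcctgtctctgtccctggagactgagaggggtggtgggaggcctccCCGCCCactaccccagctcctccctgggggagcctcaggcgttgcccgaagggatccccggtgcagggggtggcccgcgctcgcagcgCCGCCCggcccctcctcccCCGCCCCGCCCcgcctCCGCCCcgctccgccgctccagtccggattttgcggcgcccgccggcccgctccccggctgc
Sema3e (chr5:14025026-14025275, plus strand): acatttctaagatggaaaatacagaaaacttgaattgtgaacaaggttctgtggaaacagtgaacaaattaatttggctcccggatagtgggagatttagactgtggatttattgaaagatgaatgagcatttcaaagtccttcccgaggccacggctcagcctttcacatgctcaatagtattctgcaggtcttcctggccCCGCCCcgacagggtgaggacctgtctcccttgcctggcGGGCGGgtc
Ephb2 (chr4:136836013-136836262, minus strand): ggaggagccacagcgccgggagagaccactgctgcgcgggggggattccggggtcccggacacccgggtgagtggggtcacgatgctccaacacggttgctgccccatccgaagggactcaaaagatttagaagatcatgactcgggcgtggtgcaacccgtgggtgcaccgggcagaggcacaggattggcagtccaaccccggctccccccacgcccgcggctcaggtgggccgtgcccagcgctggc
Draxin (chr4:148130699-148130948, minus strand): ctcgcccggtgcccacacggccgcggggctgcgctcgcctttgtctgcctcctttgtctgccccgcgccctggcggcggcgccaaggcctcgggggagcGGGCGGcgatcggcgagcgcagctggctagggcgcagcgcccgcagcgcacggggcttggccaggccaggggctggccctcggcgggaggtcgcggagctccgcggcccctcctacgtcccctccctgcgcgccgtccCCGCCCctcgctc
The Epha2 window held the cyclic AMP response element, its first base 33 bases before the start, a motif found in 1.55% of all 32851 windows. It also held a TEAD site at 243 and at 56 bases, a motif of 12.6% of windows, and a GC box at 96 bases. The GC box, present in 32.7% of windows, occurred 5 times before Unc5a and 2 times each before Sema3e and Draxin. The Ephb2 window held no match to the 6 motifs. None of the 5 windows held the AP-1 site (4.46% of windows), the E-box (6.02%) or the TATA box (12.4%). Sema5a, Ephb3 and Epha3 also differed, all lower in KO, and their windows are not shown. Sema5a had 5 GC boxes, Ephb3 had 2, and Epha3 had a TEAD site at 244 bases. These matches describe the letters and were not tested against expression.

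Library totals ran from 27361852 to 67760880 expected counts in KO and from 24853121 to 42335628 in WT. At these totals 3 counts, the limit set by a count of 0, equal 0.0431 to 0.124 CPM (counts scaled by library total and TMM), which covers counting error only. All 10 listed fibroblast markers were present, and 5 of them were lower in KO, against 1.55% of all genes tested. The summed level of all 10 was 10334 to 11477 TPM (a level corrected for transcript length and scaled to the same total in each library) in KO against 15161 to 20765 TPM in WT. Transcripts of the X-inactivation gene Xist and of 4 Y-linked genes separated the KO-titled from the WT-titled libraries. Xist had 45.65 to 66.44 TPM in KO and at most 0.07 TPM in WT, so a difference between KO and WT and a difference between the sexes of the cultures cannot be told apart.

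Guidance genes made up 0.367%, 0.37% and 0.427% of the counts in KO at passages 2, 3 and 4, against 0.424%, 0.454% and 0.487% in WT. The ranges of the groups meet only through KO passage 4 and WT passage 2. By mean TPM over the 6 libraries, 8 members reached 50 TPM or more, 28 reached 10 TPM or more, 28 lay from 1 to under 10 TPM, and 18 lay under 1 TPM. The 8 most abundant were the Slits Slit3 (242 TPM) and Slit2 (139 TPM), the plexins Plxnb2 (132 TPM) and Plxna1 (102 TPM), the netrin receptor Unc5b (90.4 TPM), the neuropilins Nrp2 (87.7 TPM) and Nrp1 (65.2 TPM), and the ephrin Efnb2 (62.2 TPM). With Ephb4 (47.6 TPM), Sema3c (26.4 TPM), Ntn1 (21.7 TPM) and Robo1 (17.4 TPM), receptors and ligands of all 4 systems were detected in these cells. After the filter on low counts 67 members were tested, and Sema5b, Epha6, Epha8, Epha10, Ephb1, Ntn5 and Unc5cl were not. Epha6 had 1 count in KO passage 3 and Epha8 had 2 counts in KO passage 2, with 0 elsewhere. No member shared much sequence with other genes: the highest share of 64-base words also found in another gene's transcripts was 17.0%, for Ntn5.

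**Figure D1:**
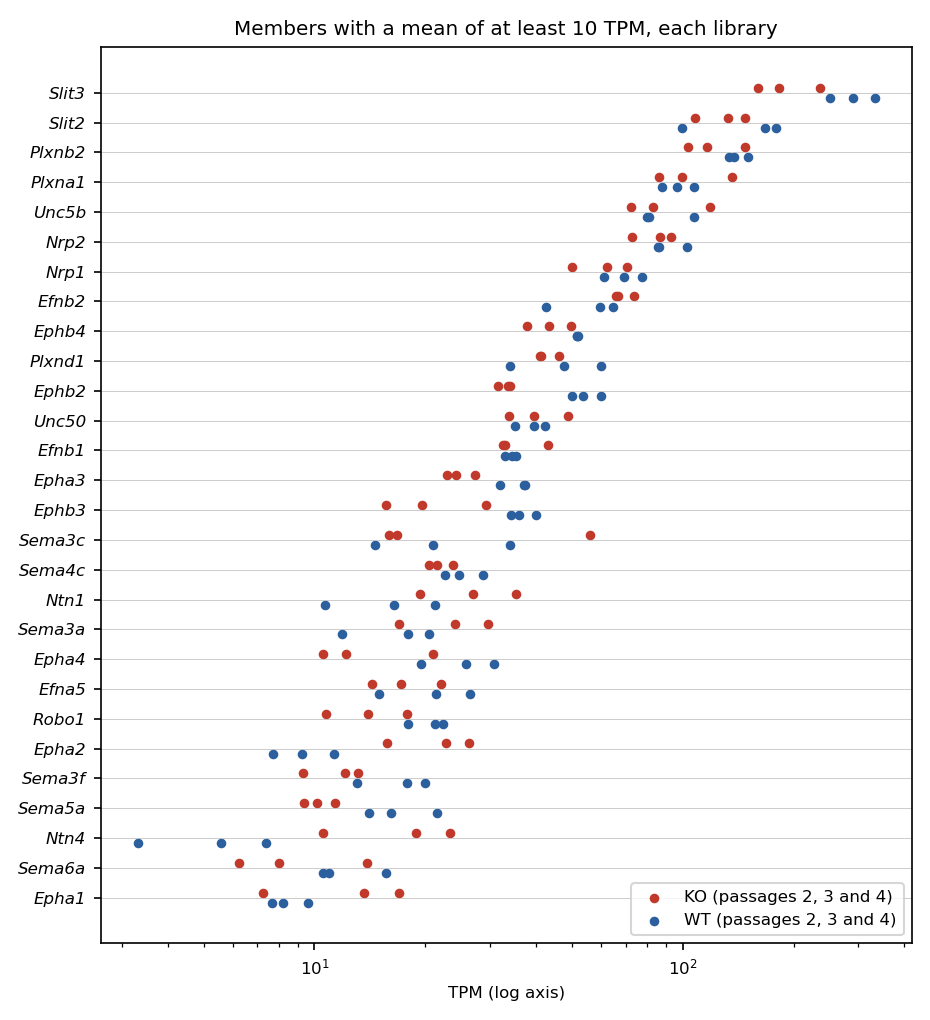
TPM (log axis) in each library for the 28 members with a mean of at least 10 TPM, ordered by that mean, with KO libraries as red points drawn above the blue points of the WT libraries in each row. Slit3 and Slit2 lie at the top, and the red and blue points lie apart for Slit3, Efnb2, Ephb4, Ephb2, Epha3, Ephb3, Robo1, Epha2, Sema5a and Ntn4, while those of Slit2, Plxna1, Unc5b and Nrp2 overlap.

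The comparison of KO with WT cultures asks which transcripts depended on genotype. By edgeR's quasi-likelihood test with Benjamini-Hochberg adjustment, 8 of the 67 tested members (11.9%) were called at an adjusted p under 0.05, against 2.48% of all 16603 genes tested. Of the 8, Unc5a, Sema3e and Epha2 were higher in KO (0.934% of all genes), and Sema5a, Ephb2, Epha3, Draxin and Ephb3 were lower in KO (1.55% of all genes). The other 59 did not pass. The median log2 change was -0.35 over the members and -0.01 over all genes, and 49 of the 67 estimates were negative. In 29 members (43.3%) the 3 KO values lay wholly apart from the 3 WT values on the CPM scale, above them in 5 and below them in 24, and the same held for 27.1% of all genes.

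The passages of the libraries pair them, and with passage as a block 25 members (37.3%) were called, 6 higher and 19 lower in KO, against 11.1% of all genes. These 25 hold all 8 genes named above. Without the passage 3 library of either genotype 0 members were called by the fit of genotype alone, while 4 were called without either passage 2 library, 3 without the KO library of passage 4 and 12 without the WT library of passage 4. Over all genes, 47 and 44 were called without the WT and KO library of passage 3, and 150 and 205 without those of passage 2. Without the KO library of passage 4 it was 234 genes, and without the WT library 860. The direction of all 8 stayed as it was in each of these fits. Sema5a, Epha3 and Ephb3 did not pass on the log2(TPM + 1) scale in limma, where 5 members, and 387 genes in all, were called.

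**Figure D2:**
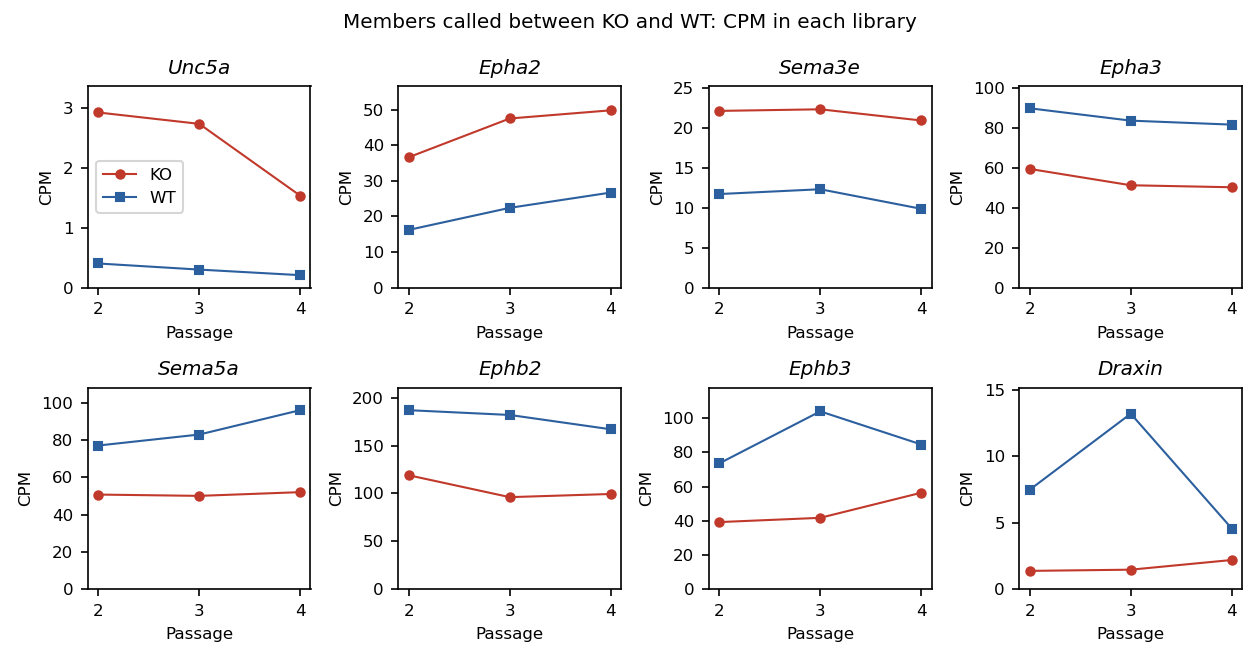
CPM (axis from 0) against passage for the 8 members called between genotypes, with 1 point per library, red circles for KO and blue squares for WT, and lines that join the passages of a genotype. In each panel the KO points lie wholly above (Unc5a, Epha2, Sema3e) or wholly below the WT points.

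Among the secreted semaphorins, Sema3e (ENSMUSG00000063531, GRCm38 chromosome 5, 14025276 to 14256689), which binds plexin D1 without a neuropilin, was higher in KO. It had 22.1, 22.3 and 20.9 CPM in KO at passages 2, 3 and 4, against 11.7, 12.3 and 9.85 CPM in WT. Each KO library lay at nearly the same level, above every WT library, and the log2 change was 0.95 ± 0.13 (SE, adjusted p = 0.0155). Its receptor gene Plxnd1 had a log2 change of -0.20 ± 0.19 (adjusted p = 0.583). Sema5a (ENSMUSG00000022231, GRCm38 chromosome 15, 32244810 to 32696341), a membrane-bound semaphorin with thrombospondin repeats, had 50.7, 50 and 52.0 CPM in KO and 77.0, 82.9 and 96.0 CPM in WT. It was lower in KO at every passage (log2 -0.74 ± 0.11, adjusted p = 0.0187).

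Of the 19 tested semaphorins 1 was higher, 1 was lower and 17 were not called, with a median log2 change of -0.41. The share called was 10.5%, against 2.48% of all genes. Among those not called, Sema6c had 3.46, 3.86 and 4.80 CPM in KO and 8.87, 14.6 and 6.42 CPM in WT (log2 -1.31 ± 0.31, adjusted p = 0.0768). Sema4g had 4.69, 5.01 and 4.67 CPM in KO and 11.5, 14.7 and 5.05 CPM in WT (log2 -1.12 ± 0.35, adjusted p = 0.135). Both are membrane-bound, and their groups lay apart in CPM but overlapped in TPM. With the passage block, Sema6c (log2 -1.26, adjusted p = 0.0395), Sema3b (-0.78, 0.0246), Sema3f (-0.60, 0.0301) and Sema6a (-0.52, 0.0223) were called lower in KO. The semaphorin with the highest mean TPM was the secreted Sema3c, with 36.2, 36.3 and 96.5 CPM in KO against 43.0, 33.3 and 78.7 CPM in WT, groups that overlap (log2 0.13 ± 0.47, adjusted p = 0.911).

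None of the 9 plexins and neither neuropilin was called by genotype alone, against 2.48% of all genes. Plxnb2, a receptor of class 4 semaphorins and the plexin with the highest mean TPM, had 385, 389 and 444 CPM in KO and 509, 555 and 504 CPM in WT. The groups did not overlap in CPM but did in TPM, and the log2 change of -0.36 ± 0.10 did not pass (adjusted p = 0.111). Nrp2, a co-receptor of class 3 semaphorins, had 274, 296 and 299 CPM in KO and 296, 419 and 325 CPM in WT, which overlap (log2 -0.26 ± 0.14, adjusted p = 0.343). With the block, Plxna2, a receptor of Sema6a among others, was higher in KO (log2 0.69 ± 0.13, adjusted p = 0.0206) and Plxnc1, the receptor of Sema7a, was lower (log2 -0.77 ± 0.19, adjusted p = 0.0441). These are 2 of the 9 plexins (22.2%), where 11.1% of all genes were called with the block.

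EphB receptors, the tyrosine kinases that bind mainly ephrin-B ligands, were lower in KO in every tested member by the blocked fit. On the CPM scale all 4 tested members had KO values wholly below WT values, while groups lay wholly apart in 27.1% of all genes. By genotype alone 2 were called (2.48% of all genes) and with the block 4 (11.1% of all genes). In TPM the groups of Ephb6 overlapped, at 2.61, 3.18 and 4.47 in KO and 7.20, 4.56 and 4.46 in WT. Ephb2 (ENSMUSG00000028664, GRCm38 chromosome 4, 136647539 to 136835988) had 119, 96.1 and 99.4 CPM in KO and 187, 182 and 167 CPM in WT (log2 -0.77 ± 0.11, adjusted p = 0.0198). Ephb3 (ENSMUSG00000005958, GRCm38 chromosome 16, 21204755 to 21223305) had 39.2, 41.7 and 56.4 CPM in KO and 73.5, 104 and 84.6 CPM in WT (log2 -0.93 ± 0.18, adjusted p = 0.0449). Both genes were higher in each WT library than in any KO library. Ephb4, the EphB receptor with the highest mean TPM and a partner of ephrin-B2 in vessel formation, had 96.9, 99.9 and 106 CPM in KO and 117, 142 and 129 CPM in WT. Its smaller change of -0.36 ± 0.10 passed with the block alone (adjusted p = 0.11, and 0.0487 with the block). Ephb6, whose kinase domain is inactive, had 5.01, 4.82 and 4.99 CPM in KO and 11.4, 9.62 and 7.28 CPM in WT (log2 -0.93 ± 0.19, adjusted p = 0.0539, and 0.0206 with the block). Summed over the family, EphB receptors reached 90.2, 97.7 and 117 TPM in KO and 153, 150 and 142 TPM in WT.

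EphA receptors, which bind mainly ephrin-A ligands, went in both directions. Epha2 (ENSMUSG00000006445, GRCm38 chromosome 4, 141301240 to 141329384) had 36.6, 47.5 and 49.8 CPM in KO at passages 2, 3 and 4, against 16.2, 22.4 and 26.7 CPM in WT. It was higher in KO at each passage (log2 1.04 ± 0.20, adjusted p = 0.0456) and also rose with passage, as given below for all members. Epha3 (ENSMUSG00000052504, GRCm38 chromosome 16, 63543534 to 63864175), the EphA receptor with the highest mean TPM, had 59.5, 51.3 and 50.3 CPM in KO and 89.9, 83.7 and 81.7 CPM in WT (log2 -0.66 ± 0.10, adjusted p = 0.0238). Epha4, which binds ephrins of both classes, had 31.2, 33.1 and 56.2 CPM in KO and 54.4, 82.2 and 90.6 CPM in WT. Its groups overlapped through the rise with passage, and it was called with the block alone (log2 -0.94 ± 0.13, adjusted p = 0.00917, and 0.129 without the block). Epha7 followed with the block (log2 -0.58 ± 0.11, adjusted p = 0.0244). Of the 6 tested EphA receptors, 1 was higher and 1 lower by genotype alone, and 1 higher and 3 lower with the block. Over all genes 2.48% were called by genotype alone and 11.1% with the block.

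The ephrins themselves showed no call by genotype alone in 8 tested genes, against 2.48% of all genes. Efnb2, a transmembrane ligand of EphB receptors and of Epha4, had 174, 169 and 163 CPM in KO and 150, 132 and 178 CPM in WT, with overlapping groups (log2 0.14 ± 0.12, adjusted p = 0.563). In TPM its groups lay apart, at 65.75, 66.72 and 73.51 in KO and 59.74, 42.65 and 64.75 in WT. Efna5, a lipid-anchored ligand of EphA receptors, had 28, 24.0 and 31.3 CPM in KO and 36.2, 28.4 and 43.6 CPM in WT, which also overlap (log2 -0.38 ± 0.18, adjusted p = 0.275). With the block 1 of the 8 was called, where 11.1% of all genes were. This was Efna1, lower in KO (log2 -1.09 ± 0.27, adjusted p = 0.0449).

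No Slit or Robo gene was called by genotype alone, against 2.48% of all genes. With the block 1 of 3 Slits and 2 of 4 Robos were called, all lower in KO, against 11.1% of all genes called. Slit3 had 464, 496 and 563 CPM in KO and 644, 929 and 1009 CPM in WT, with every KO library below every WT library (log2 -0.76 ± 0.18, adjusted p = 0.0745). With the block its change was -0.74 ± 0.11 (adjusted p = 0.0114). The receptor gene Robo1 had 45.4, 49.7 and 62.1 CPM in KO and 79.8, 94.0 and 74.0 CPM in WT (log2 -0.66 ± 0.15, adjusted p = 0.0682, and 0.0297 with the block). Robo2, another Slit receptor, had a log2 change of -1.0 ± 0.18 with the block (adjusted p = 0.0188). Slit2 was not called in either fit (log2 -0.24 and -0.23). In TPM the summed Robo level was 15.8, 17.4 and 24.6 in KO against 28.9, 29.0 and 28.3 in WT, and the summed Slit level was 308, 291 and 369 in KO against 420, 390 and 513 in WT.

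**Figure D3:**
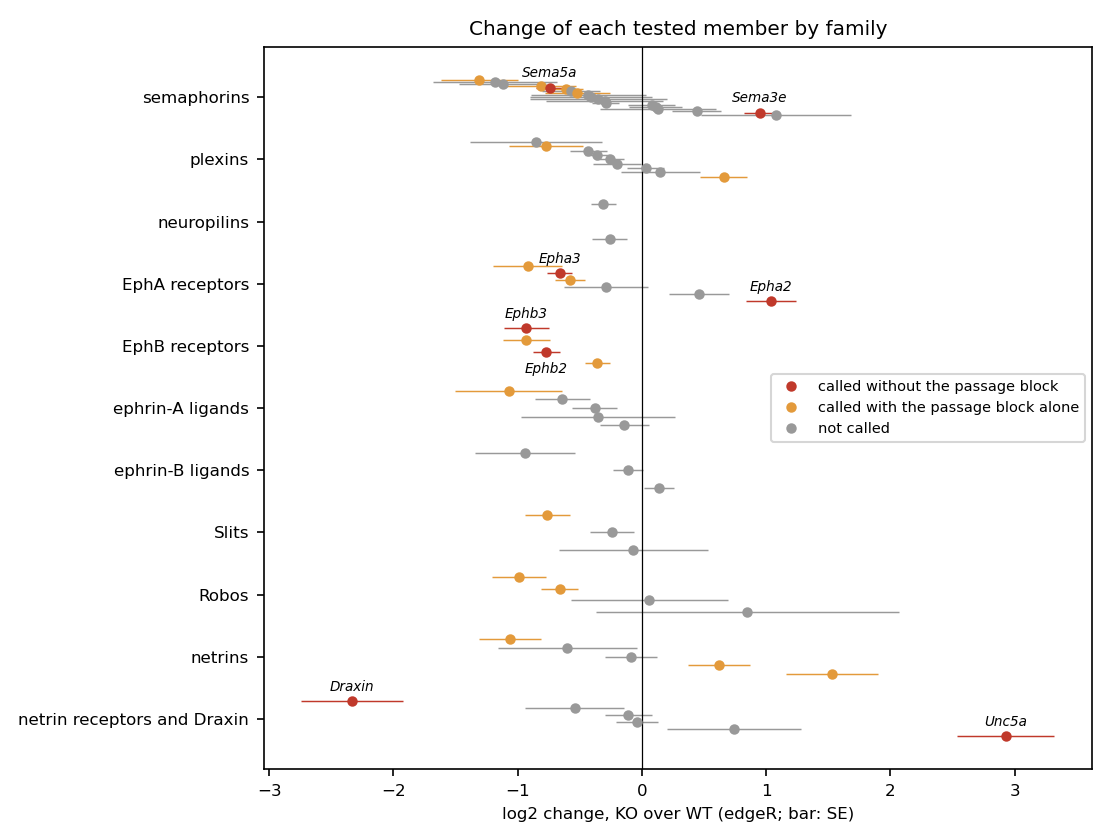
The log2 change of KO over WT (horizontal axis, edgeR fit of genotype alone, bars are SE) of each tested member, 1 row per family, coloured by whether the member was called by genotype alone (red), with the passage block alone (orange) or in neither fit (grey). All 4 EphB receptors lie left of 0 and are coloured, while called netrin genes and receptors lie on both sides, from -2.33 for Draxin to 2.93 for Unc5a.

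The largest changes in size among the called members belonged to the netrin system and concerned genes of low level. Unc5a (ENSMUSG00000025876, GRCm38 chromosome 13, 54949411 to 55006018), a receptor for repulsion by netrin-1 that is best known from neurons, had 81, 190 and 48 counts in KO at passages 2, 3 and 4, against 17, 12 and 5 counts in WT. These equal 2.92, 2.73 and 1.53 CPM in KO and 0.402, 0.300 and 0.207 CPM in WT, so that the lowest KO library stood above the highest WT library (log2 2.93 ± 0.39, adjusted p = 0.0155). In TPM, Unc5a stayed low, with 1.28, 1.79 and 0.79 in KO and 0.35, 0.12 and 0.09 in WT. On the log2(TPM + 1) scale its change was 0.93. Of the 10 neuronal markers 7 lay under 1 TPM in all 6 libraries. Between genotypes 0 of the 6 tested markers were called (2.48% of all genes). Their summed level, mostly Tubb3, was 52.9, 60.0 and 49.2 TPM in KO and 51.7, 41.9 and 52.6 TPM in WT. Draxin (ENSMUSG00000029005, GRCm38 chromosome 4, 148098437 to 148130698), a secreted protein that binds DCC and netrin-1, had 1.37, 1.46 and 2.19 CPM in KO and 7.47, 13.2 and 4.55 CPM in WT. It was lower in KO in every library (log2 -2.33 ± 0.41, adjusted p = 0.0362).

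Among the netrins, Ntn4, a basement membrane netrin, had 22.7, 37.3 and 42.9 CPM in KO and 6.48, 13.1 and 16.1 CPM in WT. All KO values exceeded all WT values, but the change was not called by genotype alone (log2 1.53 ± 0.37, adjusted p = 0.0809). With the block the log2 change was 1.57 ± 0.12 (adjusted p = 0.00169), the smallest adjusted p of any member in that fit. Ntn1, the classical midline attractant, had 63.8, 80.8 and 100 CPM in KO and 49.7, 38.5 and 71.2 CPM in WT, which overlap (log2 0.62 ± 0.25, adjusted p = 0.216, and 0.0357 with the block). Ntn3 had 2.24, 2.81 and 3.31 CPM in KO and 4.66, 7.34 and 5.50 CPM in WT (log2 -1.06 ± 0.25, adjusted p = 0.0745, and 0.0206 with the block). Thus 3 of the 5 tested netrins were called with the block (60.0%, against 11.1% of all genes). Ntn1 and Ntn4 were higher in KO and Ntn3 was lower. Unc5b, the netrin receptor with the highest mean TPM, had 251, 266 and 356 CPM in KO and 254, 309 and 379 CPM in WT (log2 -0.11 ± 0.19, adjusted p = 0.784). Dcc, the receptor for netrin attraction, had 1.19, 1.13 and 2.16 CPM in KO and 2.08, 1.35 and 3.10 CPM in WT and was not called (log2 -0.54 ± 0.40, adjusted p = 0.489).

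By role, 1 of 36 tested ligands was higher in KO and 2 were lower, and of 30 tested receptors 2 were higher and 3 were lower. These calls are 8.33% of the ligands and 16.7% of the receptors, against 2.48% of all genes. With the block the counts were 3 higher and 9 lower for ligands (33.3%), and 3 higher and 10 lower for receptors (43.3%), against 11.1% of all genes. Draxin is counted as a ligand here. Of the 10 fibroblast markers counted above, 5 were called lower in KO and 0 higher, against 1.55% and 0.934% of all genes. Vim, which was not called, stood higher in KO, with 2809.41, 2977.95 and 2939.98 TPM against 2640.47, 2048.33 and 2457.44 TPM in WT. The summed level of 6 skeletal muscle markers was 93.3, 159 and 62.2 TPM in KO and 38.6, 35.8 and 18.7 TPM in WT. Of these, 1 of 3 tested was higher in KO (0.934% of all genes). Of 9 tested endothelial markers 1 was lower in KO (1.55% of all genes). Their part in the result was not tested.

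The comparison across passages asks which transcripts changed as the cultures were carried on, as a linear slope per passage with genotype held as a covariate. Of the 67 tested members 13 (19.4%) were called: 7 rose, against 2.78% of all genes, and 6 fell, against 3.48% of all genes. The median slope was 0.04 over the members and 0.00 over all genes (log2 per passage). The number called was 1 without either library of passage 2 or either library of passage 4, 7 without the KO library of passage 3 and 13 without the WT library of passage 3. Over all genes, 283 and 330 were called without the KO and WT library of passage 2, and 248 and 339 without those of passage 4. Without those of passage 3 it was 633 and 1261 genes.

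**Figure D4:**
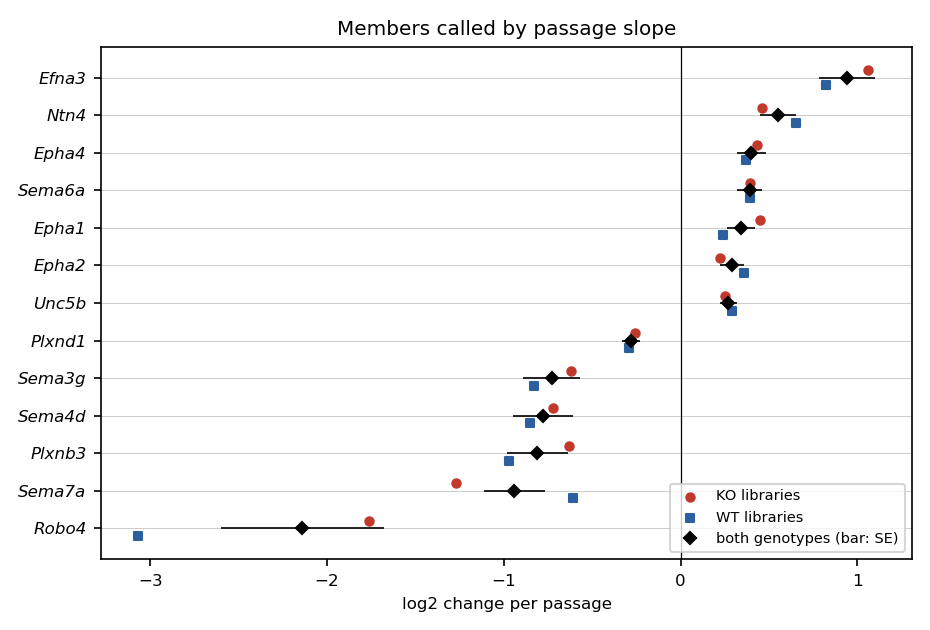
The log2 change per passage of the 13 members called in the passage fit, with the joint slope as a diamond (bar: SE), the slope in the KO libraries as a red circle and the slope in the WT libraries as a blue square. In all 13 the KO and WT slopes have the same sign, positive in 7 and negative in 6.

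Among the genes that rose, the ephrin Efna3 had the steepest slope, with 1.23, 1.74 and 5.09 CPM in KO at passages 2, 3 and 4 and 1.56, 3.83 and 4.93 CPM in WT (log2 0.94 ± 0.16 per passage, adjusted p = 0.0176). The receptors Epha4, Epha2 and Epha1 rose too. Epha4 gained 0.40 ± 0.08 per passage (adjusted p = 0.0258), Epha2 0.29 ± 0.07 (adjusted p = 0.0449) and Epha1 0.34 ± 0.08 (adjusted p = 0.0466). Epha1 had 13.6, 21.7 and 25.4 CPM in KO and 12.4, 14.2 and 17.4 CPM in WT, upward in both genotypes. Its call held in 3 of 14 alternative fits, and in 0 of those that left out a single library. Ntn4, whose levels are given above, gained 0.55 ± 0.10 (adjusted p = 0.0196), and Unc5b gained 0.27 ± 0.05 (adjusted p = 0.0299). Sema6a, a membrane-bound ligand of plexins A2 and A4, had 18.1, 20.8 and 31.2 CPM in KO and 25.7, 30.5 and 44.3 CPM in WT (log2 0.39 ± 0.07, adjusted p = 0.015).

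Robo4, a Robo receptor of endothelial cells, fell most steeply, on few counts. It had 28, 37 and 1 counts in KO at passages 2, 3 and 4 and 31, 1 and 1 counts in WT (log2 -2.14 ± 0.46 per passage, adjusted p = 0.0359). Scaled for depth these are 1.01, 0.531 and 0.0318 CPM in KO and 0.733, 0.025 and 0.0414 CPM in WT, so the level in KO was lower at each later passage and in WT it was near 0 from passage 3. Plxnd1, a plexin of vessels that binds Sema3e, had 102, 79.8 and 70.6 CPM in KO and 113, 101 and 75.5 CPM in WT (log2 -0.28 ± 0.05, adjusted p = 0.0241). Sema3g, a secreted semaphorin made by endothelium, had 1.69, 1.33 and 0.699 CPM in KO and 2.69, 1.35 and 0.869 CPM in WT (log2 -0.73 ± 0.16, adjusted p = 0.0357). Against 3.48% of all genes, 5 of 9 tested endothelial markers fell with passage. Their summed level was 59.1, 39.3 and 43.0 TPM in KO and 75.3, 72.4 and 75.1 TPM in WT, mostly Flt1, and 4 of the 10 listed lay under 1 TPM in all libraries. Their part in the result was not tested. In bulk RNA, fewer cells of a type and less RNA per cell cannot be told apart.

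Sema7a, a lipid-anchored semaphorin that also signals through integrins, had 21.7, 13 and 3.59 CPM in KO and 8.44, 5.91 and 3.60 CPM in WT (log2 -0.94 ± 0.17 per passage, adjusted p = 0.0245). The KO libraries stood above WT at passages 2 and 3 and met WT at passage 4. Sema4d, a ligand of plexin B1 that is abundant in immune cells, had 4.36, 1.54 and 1.65 CPM in KO and 4.80, 3.21 and 1.45 CPM in WT (log2 -0.78 ± 0.17, adjusted p = 0.038). Plxnb3, a receptor of Sema5a, had 2.06, 1.75 and 0.827 CPM in KO and 4.33, 2.91 and 1.08 CPM in WT (log2 -0.81 ± 0.17, adjusted p = 0.0359). Over all genes 3.48% fell with passage. All 10 macrophage markers fell too, with a summed level of 363, 123 and 63.1 TPM in KO and 536, 250 and 71.2 TPM in WT. Of 7 tested glial and neural crest markers 4 fell, with a summed level of 31.1, 28.7 and 19.2 TPM in KO and 34.7, 25.6 and 11.8 TPM in WT. Of 7 tested epithelial markers 3 fell, with a summed level of 14.5, 10.6 and 5.11 TPM in KO and 20.9, 3.42 and 1.41 TPM in WT. Their part in the result was not tested.

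The interaction of genotype and passage asks whether the slopes differed between KO and WT. No gene was called (0 of 16603, or 0%, and 0 of 67 members) by edgeR at an adjusted p under 0.05. At an unadjusted p under 0.05 there were 1137 genes and 1 member, Sema7a, named after its values were seen. DESeq2 called 83 genes and 0 members, and limma on log2(TPM + 1) called 2 genes and 0 members. Without the filter on low counts edgeR called 289 genes, and without the KO library of passage 2, 3 or 4 it called 1, 11 and 8, with 0 members in each. This fit has 2 residual degrees of freedom.

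The partner genes of the guidance systems were counted from a list that matched 24 co-receptors and further ligands and 38 intracellular effectors. Of the 58 tested partner genes 2 were called (3.45%, against 2.48% of all genes), both of them effectors and both higher in KO. Mical2, an enzyme of the MICAL family that oxidises actin, had 123.96, 141.61 and 138.68 TPM in KO and 84.07, 77.58 and 82.16 TPM in WT (log2 0.58 ± 0.10 on the CPM scale, adjusted p = 0.033). Rasa1, a Ras GTPase-activating protein, had 78.15, 96.06 and 94.47 TPM in KO and 56.26, 41.60 and 67.92 TPM in WT (log2 0.66 ± 0.13, adjusted p = 0.0418). Both had KO libraries wholly above WT libraries. Of the 21 tested co-receptors 0 were called by edgeR, with 6 at an unadjusted p under 0.05, which 3543 of all 16603 genes also reached. The median log2 change was 0.02 over the 58 tested partner genes. With the block 8 partner genes were called, 4 higher and 4 lower in KO, or 13.8% against 11.1% of all genes, a share near the background. No partner gene was called without the WT library of passage 2 or 3 or the KO library of passage 3 or 4. Without the KO library of passage 2 neither Mical2 nor Rasa1 passed and 1 other gene was called, lower in KO. Without the WT library of passage 4 there were 3 calls, both genes included.

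Across passages 6 of the 58 partner genes were called (10.3%, against 6.25% of all genes), and 0 without the KO library of passage 4 and 1 without the WT library of passage 4 or either library of passage 2. Lrrc4c, the receptor of netrin-G1, rose by 0.59 ± 0.09 (log2 per passage, adjusted p = 0.0129). The collapsin response mediators Crmp1 and Dpysl3, which carry semaphorin signals in neurons, rose by 0.48 ± 0.10 and 0.29 ± 0.06 (adjusted p = 0.029 and 0.034), and the GTPase Rnd3, whose family binds plexins, rose by 0.35 ± 0.07 (adjusted p = 0.0325). L1cam, a neural adhesion molecule, and Cd72, a Sema4d receptor of B cells, fell by 0.62 ± 0.11 and 1.07 ± 0.23 (adjusted p = 0.0219 and 0.0368). The 6 were named because they are all that passed.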

How the data were processed

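RNA-seq of 6 mouse fibroblast libraries was used. The submitters' processing notes name Trimmomatic 0.39 for trimming, RSEM for quantification and the build GRCm38. For the RSEM version, aligner, annotation and strand handling, the sources used here give nothing. The deposited tables hold the authors' expected counts (12.0% to 15.8% of values not whole, as RSEM divides ambiguous reads), TPM, FPKM (not used) and effective lengths. Strand being unknown, overlapping and antisense genes cannot be told apart. Of the 55487 gene IDs, 55227 (99.5%) matched GENCODE M21 of GRCm38, and the other 260 held 0.442% to 0.683% of counts.

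Expected counts were rounded, scaled by TMM and tested with edgeR 4.0.16 (robust quasi-likelihood, 2-sided, R 4.3.3) on the 16603 genes that passed a minimum count of 10, with Benjamini-Hochberg adjustment over all of them. Alternatives used DESeq2 1.42.0 and limma 3.58.1 on log2(TPM + 1) or log2(TPM + 0.1). SE is the log2 change divided by the root of the F statistic. In data simulated for the KO and WT comparison on 16603 genes, 28% of 1.5-fold, 56% of 2-fold and 88% of 4-fold changes were recovered. The simulated counts took their spread from the fit that holds passage and had no passage effect. These shares can therefore overstate what the fit of genotype alone recovers in the real libraries. Passages pair the libraries: deviations from the group means of the same passage correlated at 0.49, 0.14 and 0.42 over genes at passages 2, 3 and 4.

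The members, partner genes and marker lists were chosen with earlier results of these data known. Values were given in every library for members called in a fit, for the member of highest mean TPM in each family, and for members whose groups lay apart in CPM with a log2 change of at least 1; a few more are named where a block call, a family or a count is described. Promoters came from RefSeq (GRCm38.p6).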

Additional observations from a re-analysis of the deposited data

How the results depend on the processing

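Of 373 recomputed values of single members, 217 kept direction and side of the threshold, 143 no longer passed, 12 newly passed and 1 reversed. The reversed value was Ntn4 between genotypes, at -0.03 when groups followed the genotype tag. That tag leaves 1 library in the KO group, that of passage 2, so its calls are not counted below. The 8 members called between KO and WT became 22 with DESeq2, 17 with no filter on low counts, 5 on log2(TPM + 1) and 5 on log2(TPM + 0.1). They became 1 without both passage 2 libraries (Ntn4, not among the 8) and 0 to 12 when single libraries were left out. Over all genes the 412 calls became 1661 with DESeq2, 846 with no filter, 387 and 403 on the TPM scales and 70 without both passage 2 libraries. Without single libraries 44 to 860 genes were called. With passage as a replicate block, which pairs the libraries, 25 members and 8 partner genes were called, all 8 members included. The 13 members called across passages became 22 with no filter, 8 with effective lengths as offsets, 0 with no genotype term and 1 to 13 without single libraries. Over all genes the 1038 calls became 2443, 873, 157 and 248 to 1261 in the same order. The 2 partner genes called between KO and WT became 8 with DESeq2, 1 on either TPM scale and 1 with effective lengths. They became 1 without passage 2 (another gene, lower in KO) and 0 to 3 without single libraries. The 6 across passages became 12 with DESeq2, 15 with no filter, 1 with no genotype term and 0 to 8 without single libraries. The cause of these shifts was not tested. Leaving out 1 library leaves 1 group with 2, and the count of 0 interaction calls among members did not change under the alternatives run. Depth limits Unc5a, Draxin and Robo4, whose lowest libraries held 5, 38 and 1 counts.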

Other observations

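Chl1, a cell adhesion molecule of the L1 family that pairs with neuropilin-1 in neurons, had the largest genotype change in size on the partner list and was chosen after its values were seen. It had 3.91, 0.59 and 0.79 TPM in KO at passages 2, 3 and 4, against 20.07, 9.85 and 6.88 TPM in WT, and each KO library lay below each WT library. Its log2 change of -3.12 ± 0.75 was not called by genotype alone (edgeR adjusted p = 0.0811) and passed with the passage block (log2 -3.38 ± 0.37, adjusted p = 0.00885).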
